A study of Mus musculus with 2 samples.

Results

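The subject here is a set of 9 genes for transcription factors that act in blood cell development: the bZIP genes Maf and Mafg, the Id genes Id1, Id2 and Id3, the zinc finger and homeobox genes Zeb1 and Zeb2, the E protein gene Tcf4, and the BTB zinc finger gene Bcl6. They were measured in granulocytes and in monocytes of mouse bone marrow. The members were chosen by name, as every non-control probe whose gene name in the array files was 1 of these 9 symbols. This found 21 of the 41174 probes on the array, and the 9 genes are compared below with the 15429 named genes that were well above background on at least 1 array. Wild type mice of the C57BL/6 strain, all male and with no treatment named, gave the bone marrow for both sorts, and each cell population was hybridised once, so there are 2 samples in all, 1 granulocyte and 1 monocyte. No source used here gives the age or number of the mice or the surface markers that set the sort. With 1 array a group no difference has a replicate check, no p-value is given, and every value below describes these 2 arrays.

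As background, the 4 families work by different means. Large Maf proteins such as Maf carry an activation domain and drive macrophage and T helper cell genes, while small Maf proteins such as Mafg lack that domain and bind DNA as partners of CNC-bZIP factors such as Nfe2l2 and Bach1. Id proteins have a helix-loop-helix but no DNA-binding region, so they hold E proteins such as Tcf4 (also called E2-2) away from the E-box, and the balance of Id2 and Tcf4 is known for setting plasmacytoid against classical dendritic cell fate. Zeb1 and Zeb2 repress genes through paired E-box sites and the corepressor Ctbp, and Zeb2 is needed for monocyte and plasmacytoid dendritic cell development. Bcl6 represses genes through corepressors such as Ncor1 and Bcor and is best known in germinal centre B cells.

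The probes are 60 bases long and read single positions of a transcript. Probes of Id2 and Id3 that span an intron are shown because Id3 was far apart between the populations and Id2 was not, and because a probe across an exon junction matches spliced RNA. The Id2 probe spans 348 bases of the genome, mm8 chr12:25684398-25684745 on the minus strand, and the Id3 probe spans 175 bases, mm8 chr4:135416236-135416410 on the plus strand.
Id2: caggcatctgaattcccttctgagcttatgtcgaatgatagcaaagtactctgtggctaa
Id3: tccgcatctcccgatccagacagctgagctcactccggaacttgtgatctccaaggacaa
The files give probe coordinates in mouse build mm8, whose exon and UTR annotation was not used here.

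The scanner software's processed signals were set on a log2 scale relative to the 75th percentile of each array, which was 339 in granulocytes and 621 in monocytes. This scaling added 0.87 to every difference of granulocyte minus monocyte. A probe was called measured where it was well above background on both arrays, as 25251 of the 41089 probes with values were. On each array taken alone, 63.9% of probes were well above background in granulocytes and 68.2% in monocytes. The label of each sample was set against its markers. All 8 granulocyte markers were higher in granulocytes, with a median log2 difference of 4.47, and all 8 monocyte markers were higher in monocytes, with a median of -7.05.

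Of the 9 genes, 3 passed 4-fold toward granulocytes, namely Bcl6, Zeb1 and Mafg, and 3 passed it toward monocytes, namely Zeb2, Id3 and Tcf4. The other 3, Id1, Id2 and Maf, were less than 2-fold apart on the probe that stands for the gene, which is the brightest probe measured. Over all 15429 genes, 8.57% passed 4-fold toward granulocytes and 10.5% toward monocytes, so 19.0% were 4-fold apart in either direction, against 6 of the 9 members (66.7%). Since the members were picked with results of these arrays known, the excess over that background is a description only. Without scaling the same counts over all genes were 577 and 2997, and with spike-in scaling they were 802 and 2332, against 1323 and 1614 here. The median log2 difference of all genes was 0.40 here and ran from -0.43 without scaling to 0.47 after normexp background correction, so differences between 0 and 1 in size depend on the scale chosen. The median of the 9 members was 0.75, and -0.12 without scaling.

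**Figure D1:**
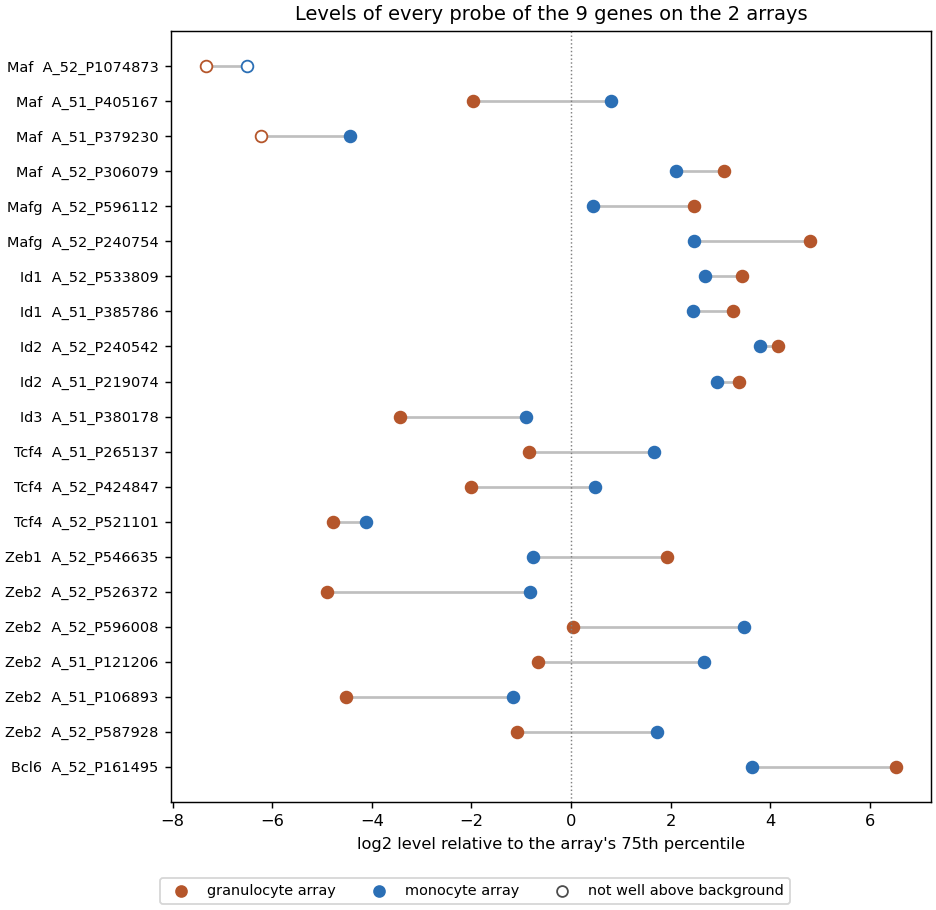
The log2 level of each of the 21 probes, relative to the 75th percentile of its array, in granulocytes (orange) and monocytes (blue), with open circles for values not well above background. The Zeb2 probes and 2 of the Tcf4 probes lie far to the left in granulocytes, the Bcl6, Zeb1 and Mafg probes lie to the right, and the 2 measured Maf probes point in opposite directions.

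The Id genes did not move together. Id1 had processed signals of 3658 in granulocytes and 3986 in monocytes on 1 probe and of 3234 and 3367 on the other, and the scaled log2 differences were 0.75 and 0.81. Both values are of the same size as the scaling itself, and without scaling the Id1 difference was -0.12. These 2 probes overlap, with their starts 10 bases apart on chromosome 2, and are close to a repeat of 1 measurement.

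Id2, an Id protein of lymphoid and dendritic lineages, was likewise present at similar signal in both populations. Its signals were 6011 in granulocytes and 8652 in monocytes on 1 probe, and 3492 and 4699 on the intron-spanning probe printed above. The scaled log2 differences were 0.35 and 0.44, and on the first probe the sign turned to -0.53 without scaling, -0.16 under quantile normalisation and -0.15 with spike-in scaling. The direction of Id2 is therefore not settled by these arrays, and it stayed less than 2-fold apart under each of the settings tried.

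Id3 was the Id gene with a large difference, and its level was the lower one in granulocytes. Its only probe, printed above, gave a signal of 31.2 in granulocytes and 330 in monocytes, a log2 difference of -2.53 or 5.77-fold, which 6.57% of all genes matched or passed in that direction. The granulocyte signal is low, and after normexp background correction with an offset of 50 the Id3 difference was -1.40, or 2.64-fold, the 1 setting that left it under 4-fold. The difference of Id1 was above that of Id3 by 3.28 log2 units and that of Id2 was above it by 2.88, and these gaps between genes shrank to 2.08 and 1.63 after normexp.

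Tcf4, the E protein that Id proteins bind, was lower in granulocytes on all 3 of its probes. The brightest probe had a signal of 188 in granulocytes and 1975 in monocytes, a log2 difference of -2.52 or 5.73-fold. A probe 931 bases away had signals of 84.4 and 872, with a difference of -2.50. The remaining probe spans 54577 bases of the genome and lies 191322 bases upstream of the first, and it was dim on both arrays, with signals of 12.3 and 35.6. Its difference was only -0.66, and after normexp it was 0.40, so the upstream probe gives no firm direction. The 3 Tcf4 probes thus covered a range of 1.86 log2 units, which 6.25% of genes with at least 2 measured probes reached or passed.

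For the other E proteins and their bHLH partners the differences were smaller. All 10 genes of that list were above background, and 0 of 10 were at least 4-fold apart in either direction, against 19.0% of all genes. The list median was -0.08. Tcf12, the E protein HEB, came nearest, at -1.97, but its 4 probes ran from -2.05 to 1.55. Tcf3, which encodes E2A, was at -0.17. Tal1, a bHLH partner of E proteins in erythroid and stem cells, was higher in granulocytes at 1.70, and Bhlhe41, a bHLH repressor, at 1.06. Id4 was well above background in granulocytes alone and was at least 2.82-fold higher there, where "at least" sets the measured level against the lowest signal that passed background on the other array.

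Genes of the BMP pathway, which is known for inducing Id1, Id2 and Id3, were split. Of 12 genes 11 were above background, 3 passed 4-fold toward granulocytes and 2 toward monocytes, against 8.57% and 10.5% of all genes. The list median was 0.06. The receptor gene Bmpr1a was at least 92.5-fold higher in granulocytes, where its 2 probes gave values from 3.23 to 6.53 on the log2 scale, the receptor gene Acvrl1 was higher by 4.80 on the log2 scale, and the inhibitory Smad6 by 4.04. The receptor gene Acvr1 and the coreceptor gene Eng were lower in granulocytes, at -2.97 and -2.34. Of the Smads that carry the BMP signal, Smad1 stood at -1.68 and Smad5 at -1.05, and Smad9 gave a bound of no fold. Smad4 was at 0.80, with its 2 probes at 0.65 and 0.80, less than the 0.87 that scaling adds. The direction was thus mixed within receptors and among the Smads, where Smad1 and Smad5 were lower in granulocytes and Smad6 was higher.

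Zeb1 and Zeb2 differed in opposite directions, by more than any other pair of 1 family here. Zeb2 was lower in granulocytes on all 5 of its probes. From the 3' end of the transcript to the 5' side, the signals were 11.3 in granulocytes and 349 in monocytes on the first probe. They were 351 and 6886 on the next, 2736 bases upstream, and 214 and 3958 on the one at 4030 bases. The first value of each pair is the granulocyte array, and it was the lower one each time. The signals were 14.8 and 278 on the probe at 24740 bases, and 159 and 2066 on the probe at 36474 bases. The scaled log2 differences in the same order were -4.07, -3.42, -3.34, -3.36 and -2.83, so the lower level in granulocytes ran from 16.8-fold to 7.09-fold along the locus. The probes' SD was 0.44 around these values, against a median SD of 0.23 over the 5330 genes with at least 2 measured probes. The 2 dimmest probes in granulocytes, the first and the one at 24740 bases, fell under 4-fold after normexp, at -1.82 and -1.42, while the 3 brighter ones stayed at or beyond -2.55. The probe that stands for Zeb2 was 10.7-fold lower in granulocytes, and 2.94% of genes were at or beyond it.

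**Figure D2:**
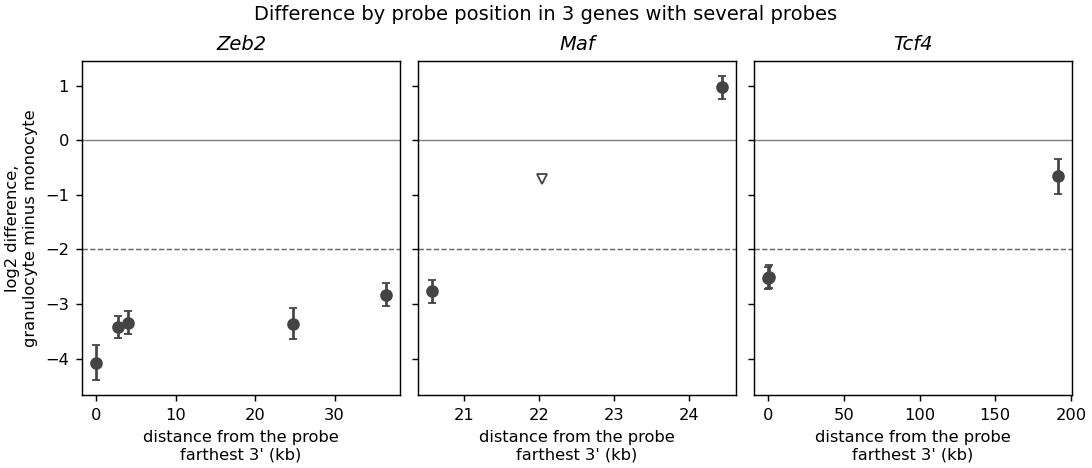
The log2 difference of granulocyte minus monocyte for each probe of Maf, Zeb2 and Tcf4 against its distance in kb from the probe nearest the 3' end, with bars for the scanner software's error and an open triangle for the bound. The Maf probe below background on both arrays is left out. The 5 Zeb2 probes stay between -4.07 and -2.83 over 36474 bases, while Maf runs from -2.77 to 0.97 within 24440 bases.

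Zeb1 had the opposite direction. Its single probe, at mm8 chr18:5774613-5774672 on the plus strand, had a signal of 1292 in granulocytes and 366 in monocytes. The log2 difference was 2.69 or 6.45-fold, and 4.30% of genes were at or above it. Without scaling the difference was 1.82, under 4-fold but in the same direction. The gap between the differences of Zeb1 and Zeb2 was 6.11 log2 units for the 2 probes that stand for these genes. Of the 7 scalings and background corrections tried, those that add a constant to every difference cannot change this gap. Quantile normalisation gave 6.21 and normexp 5.77. The choice of Zeb2 probe also moves it, as Zeb2 ran from -4.07 to -2.83 by probe.

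The corepressors and targets of the Zeb proteins gave a list median near that of all genes. Of 17 genes 14 were above background, 1 passed 4-fold in each direction, and the list median was 0.48. Snai1, another E-box repressor of epithelial genes, was at least 60.1-fold higher in granulocytes. Cdh1, the E-cadherin gene that Zeb proteins repress, was well above background in monocytes alone and was at least 4.28-fold higher there. The corepressor gene Rcor1 was higher in granulocytes at 1.67. Hdac2 stood at -1.80 on 1 probe, while its other probe gave no fold.

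The Maf genes gave a clear value for Mafg and a contradictory one for Maf. Mafg had signals of 9491 in granulocytes and 3446 in monocytes on 1 probe and of 1889 and 842 on the other, 2282 bases nearer the 3' end. The log2 differences were 2.33 and 2.04, or 5.04-fold and 4.11-fold, both higher in granulocytes, and 6.09% of all genes were at or above the first. The SD between the 2 probes was 0.21, against an error of 0.20 that the scanner software gives to a single difference. Across the settings tried Mafg ran from 1.46 to 2.33 and kept 4-fold in 9 of 12.

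Maf had 4 probes within 24440 bases of chromosome 8, and their results disagreed. The brightest, at mm8 chr8:118593684-118593743 on the minus strand, had signals of 2841 in granulocytes and 2657 in monocytes, a scaled log2 difference of 0.97. The probe at mm8 chr8:118589813-118589872 had signals of 86.6 and 1078, a difference of -2.77, or 6.80-fold higher in monocytes. The probe between them had 4.52 in granulocytes, not well above background, and 28.5 in monocytes, which makes Maf at least 1.64-fold higher in monocytes there. The probe nearest the 3' end was not well above background on either array. So 1 probe had Maf slightly higher in granulocytes and 2 had it higher in monocytes. The 0.97 of the brightest probe is close to the 0.87 that scaling adds. Without scaling that probe was at 0.10, and with spike-in scaling at 0.47. The probes' GC content was 58.3% for the brightest and 36.7%, 50% and 35% for the others, and the brightest carried the identifiers of a clone-derived mRNA and no curated RefSeq accession. Whether these properties have a part in the disagreement was not tested. Of the 5330 genes with at least 2 measured probes, 83.9% had all of them on 1 side of 0. Only 53 (0.994%) had a range as wide as the 3.73 log2 units of Maf, where the median range was 0.37. Of the 6 members with at least 2 measured probes, Maf was the only 1 whose signs differed. The rule of the brightest probe gives 0.97 for Maf, and leaving Maf out kept the counts at 3 and 3 members.

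**Figure D3:**
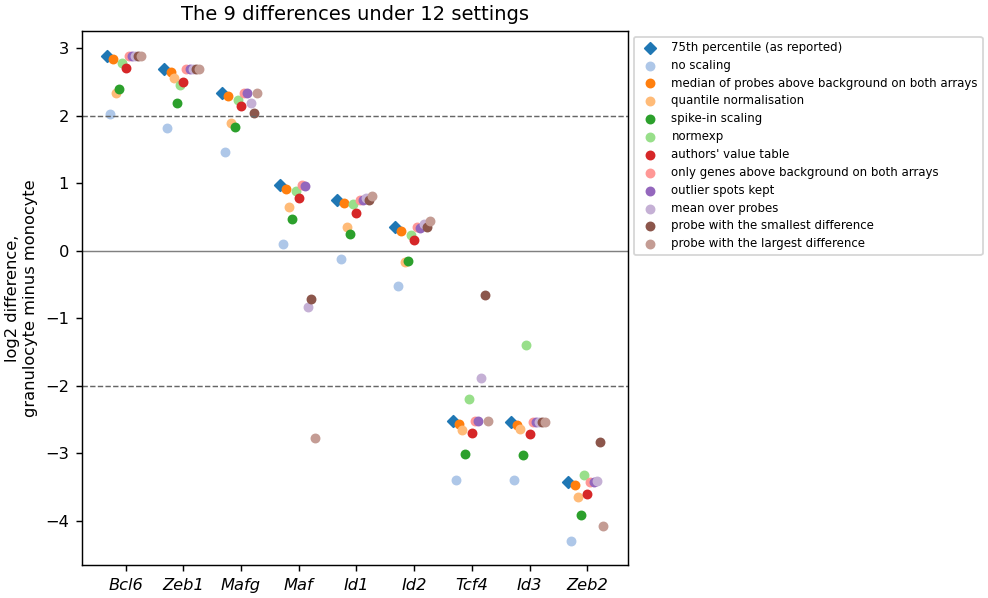
The log2 difference of each of the 9 genes under each of the 12 settings, with the reported value marked. Maf spans -2.77 to 0.97 and Id2 crosses 0, while Bcl6 stays between 2.02 and 2.89 and Zeb2 between -4.29 and -2.83.

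Other genes of the Maf and CNC-bZIP families divided by gene. Of 12 genes 10 were above background, 1 passed 4-fold toward granulocytes, 2 toward monocytes, and the list median was 0.83. Maff, a small Maf, was lower in granulocytes at -2.15, the opposite of Mafg. Nfe2, the CNC-bZIP partner of small Maf proteins in blood cells, was higher in granulocytes at 2.03. Nfe2l2, which encodes NRF2, was at 1.56 on its brightest probe, but its 3 probes ran from -1.81 to 1.56. Mafg and Maff, both small Maf genes, thus stood at 2.33 and -2.15 on these 2 arrays.

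Of the 10 known targets of small Maf and Nfe2l2 dimers, 3 passed 4-fold toward granulocytes and 0 toward monocytes. Over all genes these shares were 8.57% and 10.5%. The list median was 1.63 against 0.40 over all genes. Without scaling the list median was 0.76, the lowest of the 12 settings, against -0.43 over all genes. Osgin1 was higher in granulocytes at 4.94, with its 3 probes between 2.71 and 4.94. Slc7a11, the cystine transporter, was also at 4.94, with its 4 probes between 4.25 and 5.92. The quinone reductase gene Nqo1 was at 3.63 and G6pdx, of the pentose phosphate pathway, at 1.97. Gclc, the catalytic subunit of glutathione synthesis, went the other way at -1.93. Hmox1 at 0.54, Txnrd1 at 0.66 and Srxn1 at 0.02 lay below the 0.87 that scaling adds.

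Of 8 macrophage targets of large Maf proteins, 5 had a difference above 0 and 3 below, 0 passed 4-fold toward granulocytes and 1 toward monocytes, and the list median was 1.10. These genes were dim, with levels that sum to 2.42 in granulocytes and 1.23 in monocytes, in units of the 75th percentile. The list median was 0.80 after normexp and 0.23 without scaling. Mrc1, the mannose receptor gene, was higher in monocytes at -2.79. Its log2 level in granulocytes was -4.95, near the lowest that passed background there, -5.16. Cd5l stood at 1.99, the complement gene C1qc at 1.78 and the scavenger receptor gene Marco at 1.76, all higher in granulocytes. Il10 and Cd163 were on the side of Mrc1, at -0.19 and -0.53, so the list had no common direction.

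Bcl6 had the largest difference toward granulocytes among the members. Its only probe, at mm8 chr16:23880423-23880482 on the minus strand, had a signal of 31235 in granulocytes and 7699 in monocytes. The log2 difference was 2.89, or 7.42-fold, and 3.66% of genes were at or above it. It stayed at least 4-fold under all 12 settings, with 2.02 without scaling as the lowest value. With 1 probe there is no second position of the transcript to set beside it.

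**Figure D4:**
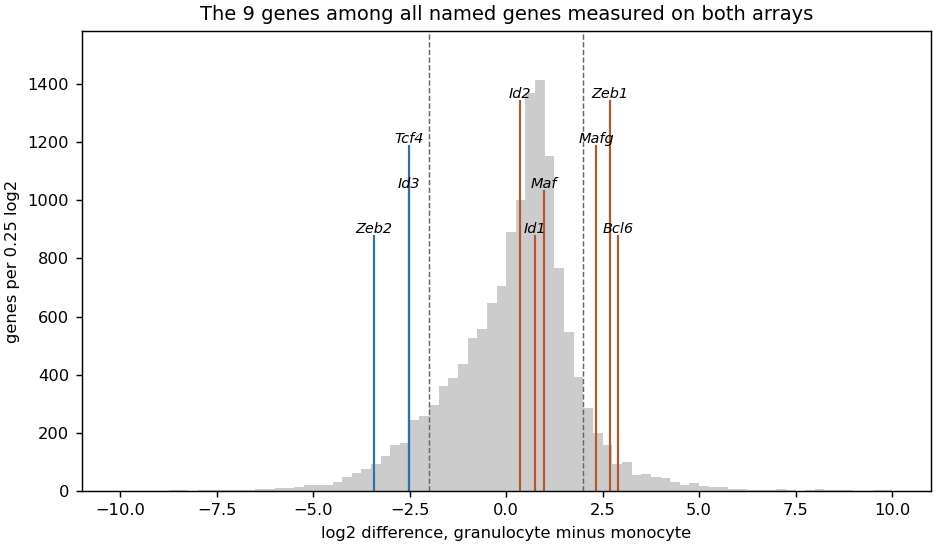
A histogram of the log2 difference of granulocyte minus monocyte over the 14020 named genes measured on both arrays, with lines at the 9 members. Bcl6 at 2.89, Zeb1 at 2.69 and Mafg at 2.33 lie in the right tail, Zeb2 at -3.42 in the left, and the lines of Id3 at -2.53 and Tcf4 at -2.52 nearly coincide.

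The corepressors of Bcl6 and related zinc finger genes had no common direction. Of 14 genes 13 were above background, 1 passed 4-fold in each direction, and the list median was -0.10. The corepressor gene Ncor1 was at 1.92, with its 5 probes from 0.62 to 1.97. Hdac4, a class II deacetylase, was higher in granulocytes at 2.88, and Mta3, of the NuRD complex, was lower at -1.63. Zbtb7a, a BTB zinc finger relative, was at 1.21, and Bcl6b was at least 2.03-fold higher in granulocytes.

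Genes that Bcl6 is known to repress in B cells had a median below 0. Of 11 genes 7 had a difference below 0, 5 passed 4-fold toward monocytes and 1 toward granulocytes. Over all genes these 4-fold shares were 10.5% and 8.57%. The list median was -1.94 against 0.40 over all genes. Cxcl10, an interferon-induced chemokine, stood at -3.88 and Ccl3, another chemokine, at -2.28. The cell cycle inhibitor gene Cdkn1a stood at -3.46, Myc at -3.21 with its 3 probes between -3.50 and -1.68, and Irf4 at -2.02. Prdm1, the repressor that opposes Bcl6, was not well above background in granulocytes and was at least 3.83-fold higher in monocytes. The adhesion gene Cd44 went the other way at 2.12, as did the survival gene Bcl2l1 at 1.99. The list median stayed below 0 under all 12 settings, from -2.81 to -0.63.

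**Figure D5:**
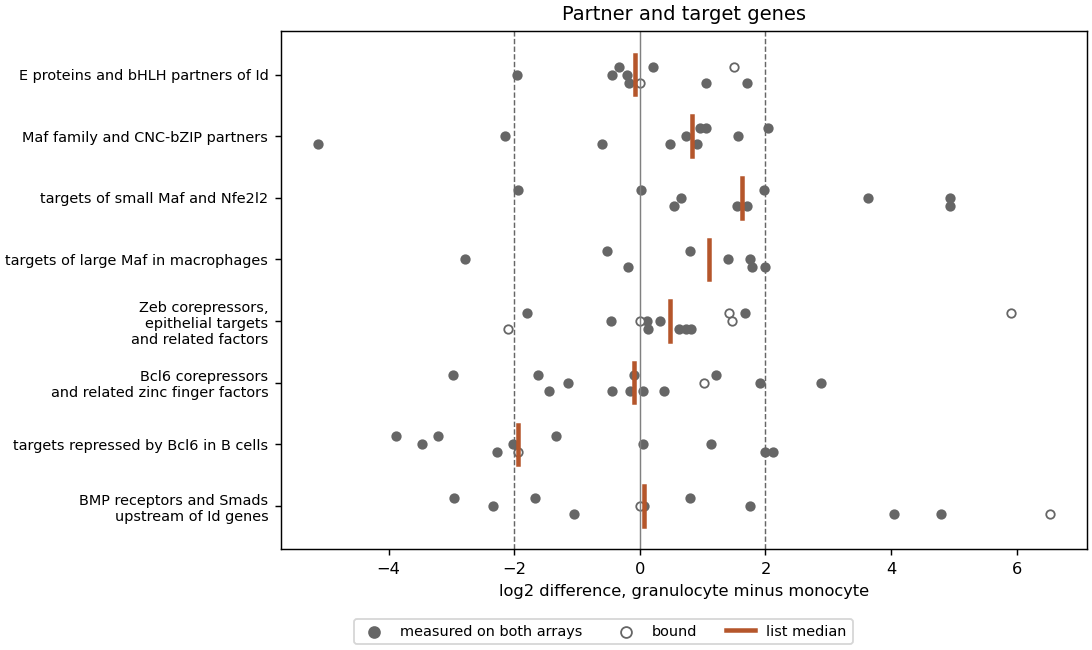
The log2 difference of granulocyte minus monocyte for each gene of the 8 partner and target lists, with open circles for bounds, a bar at each list median and dashed lines at 4-fold. The targets of small Maf and Nfe2l2 have a median of 1.63 and the targets repressed by Bcl6 one of -1.94, while the other medians lie between -0.10 and 1.10.

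Promoters are shown for Mafg and Bcl6, which were both higher in granulocytes and whose windows held the rarer motifs searched. RefSeq start sites on build GRCm38.p6 gave windows for 5 of the 9 genes, 9 windows in all, and each was cut to the 250 bases before the start. Capitals mark CACGTG in the first 2 windows, an E-box of the kind bound by bHLH and bHLH-zipper factors, and TTCCNNGAA in the last, the form bound by STAT factors and, in part, by Bcl6. The windows are GRCm38.p6 chr11:120633548-120633797, chr16:23988853-23989102 and chr16:23981284-23981533, all on the minus strand and written 5' to 3'.
Mafg: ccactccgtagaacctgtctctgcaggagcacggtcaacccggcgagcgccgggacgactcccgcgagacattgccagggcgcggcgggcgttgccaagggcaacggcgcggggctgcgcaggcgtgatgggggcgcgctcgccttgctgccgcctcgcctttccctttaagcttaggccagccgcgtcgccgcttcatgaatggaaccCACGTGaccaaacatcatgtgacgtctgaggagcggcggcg
Bcl6, upstream start: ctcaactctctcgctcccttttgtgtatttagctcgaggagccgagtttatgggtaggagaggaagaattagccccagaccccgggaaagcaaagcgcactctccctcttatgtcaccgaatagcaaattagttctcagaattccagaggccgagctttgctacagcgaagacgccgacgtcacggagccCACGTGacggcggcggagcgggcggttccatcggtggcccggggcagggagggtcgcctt
Bcl6, downstream start: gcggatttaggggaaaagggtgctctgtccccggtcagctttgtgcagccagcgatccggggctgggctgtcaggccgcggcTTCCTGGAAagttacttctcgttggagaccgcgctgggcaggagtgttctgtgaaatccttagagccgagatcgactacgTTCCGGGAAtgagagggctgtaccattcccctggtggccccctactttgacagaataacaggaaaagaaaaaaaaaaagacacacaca
Over 32817 windows of this length, 6.02% held CACGTG, which reads the same on both strands. TTCCNNGAA was searched on the written strand alone, and 2.55% of windows held it there. The Mafg window had 1 CACGTG, the upstream Bcl6 window had 1, and the downstream Bcl6 window had 2 matches to TTCCNNGAA. The general E-box CANNTG, which includes CACGTG and CAGGTG, was in 66.2% of all windows, with 2 matches in Mafg, 1 in the upstream Bcl6 window and 1 in Id2. The Zeb site CAGGTG (17.2% of windows) and the core TGCTGA of Maf binding sites (16.1%) had no match in any of the 9 windows, and GGCGCC (9.59%), bound by Smad1 and Smad5, had 1 match in Id2. A match says only that the letters are there, and none of these arrays measured binding.

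The genes of the partner and target lists nearest to each member were sought among the 76 measured on both arrays, by the size of the gap between the 2 log2 differences. With only 2 arrays this means no more than a like difference. Bcl6 at 2.89 lay nearest to Hdac4 at 2.88, and Hdac4 was also nearest to Zeb1. Zeb2 lay nearest to Cdkn1a at -3.46, while Id3 and Tcf4 both lay nearest to Eng at -2.34. Mafg lay nearest to Cd44 at 2.12, Maf at 0.97 to Nfe2l3 at 0.96, Id1 to Bach2 at 0.74 and Id2 to Twist2 at 0.33.

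Markers of other cell types moved with some of these genes. In a sorted population a share of other cells and a level per cell cannot be told apart by these arrays. Tcf4, Zeb2 and Id3 are expressed in lymphoid, dendritic or progenitor cells as well as monocytes, so those markers are given here. Of 8 plasmacytoid dendritic cell markers 4 passed 4-fold toward monocytes, their median was -2.03, and their summed level, in units of the 75th percentile, was 17.9 in granulocytes and 33.8 in monocytes. Siglech, a defining marker of that cell type, was not well above background in granulocytes and was at least 15.6-fold higher in monocytes, while Runx2 at 1.83 and Irf7 at 0.44, both of that list, were higher in granulocytes, Irf7 by less than the 0.87 from scaling. Of 8 NK cell markers 4 passed 4-fold toward monocytes, at a summed level of 0.943 against 9.83, and Ncr1 was below background on both arrays. Klre1 of that list was higher in granulocytes at 1.75, but its 2 probes ran from -1.59 to 1.75. Of 8 T cell markers 3 passed 4-fold toward monocytes, at 5.49 against 7.94. Cd3d at 1.76 and, by less than the scaling shift, Cd3e at 0.44 went the other way. Of 5 stem and progenitor markers 3 passed 4-fold toward monocytes, at 34.1 against 262. Among these were Cd34 at -3.51 and Mpo at -2.99. Kit at 1.35 and, by less than the scaling shift, Mycn at 0.69 went the other way. Of 6 dendritic cell markers 2 passed 4-fold toward monocytes and 1 toward granulocytes, at 3.69 against 15.0. The part of such cells in the differences of Tcf4, Zeb2 and Id3 was not tested.

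Toward granulocytes, where Bcl6, Zeb1 and Mafg were higher, the 5 erythroid markers had a median of 1.63, with a summed level of 218 in granulocytes and 63.5 in monocytes, and the 4 megakaryocyte markers a median of 2.15, with 2 of 4 past 4-fold. The 8 B cell markers, a cell type known for Bcl6, had a median of 1.08 with 0 of 8 at least 4-fold apart, and summed levels of 6.46 and 5.49. Of 6 stromal and endothelial markers 1 passed 4-fold toward granulocytes, and the median was 0.56. Their part in the differences of Bcl6, Zeb1 and Mafg was not tested.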

How the data were processed

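Total RNA was amplified by a linear T7 method, labelled with Cy3 and hybridised to 1-colour Agilent mouse arrays that share a slide and a scan. Per the file headers, the deposited intensity values come from Agilent Feature Extraction 10.5.1.1, which subtracted background to give the processed signal and its error. Saturated gene spots numbered 0, and spots flagged as outliers were left out. From each intensity, log2 was taken and the array's 75th percentile subtracted. Genes were named by accession (24034 probes), current symbol (6213) or older symbol (2378). The 410 probes listing several genes and the 8033 unnamed ones stood for no gene. The authors also deposited log2 values, which matched the log2 processed signal up to a constant for each array. No source used here states how it was set; the column medians are both 4.80.

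A gene is represented by the probe above background on most arrays, then the brightest. Where 1 array was not above background, the difference is a bound, and a bound of no fold counts as 0. A difference was counted at 4-fold or more. Median SDs between repeated spots were 0.071 and 0.069. Genes named from each list are the 4 with the largest differences and those at least 2-fold against the list's direction; a few others were added after their values were seen. Some genes that this rule names are not reported here. Members and lists were chosen with earlier results of these data known. Calculations used Python 3.11.15, numpy 2.4.6, pandas 2.3.3 and limma 3.58.1 (normexp) in R 4.3.3, and were tested on simulated data. Scaling, background correction, the probe rule and the outlier filter were varied.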

Additional observations from a re-analysis of the deposited data

How the results depend on the processing

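No paired analysis was possible because each group has 1 array, and no replicate could be left out. The limit of depth is signal over background: the dim probes of Id3, Zeb2, Tcf4 and Maf shrank after normexp. The count of members at least 4-fold higher in granulocytes, 3 here, was 1 without scaling and 0 at 8-fold. It was 2 under quantile normalisation and with spike-in scaling. The count in monocytes, also 3, was 1 at 8-fold. It was 2 after normexp, for the mean over probes and for the probe with the smallest difference. For the probe with the largest difference it was 4. The median over the 9 members, 0.75 here, was -0.12 without scaling, 0.36 under quantile normalisation, 0.25 with spike-in scaling and 0.56 on the authors' deposited values. It was 0.39 for the mean over probes, 0.35 and 0.44 for the probe with the smallest and the largest difference, and 0.55 without Maf, an alternative chosen after seeing the data. Zeb2 and Bcl6 kept 4-fold in all 12 settings, Zeb1 and Id3 in 11, Tcf4 in 10 and Mafg in 9. Over all genes, normexp gave 869 genes past 4-fold toward granulocytes and 889 toward monocytes. The medians of the lists of E protein partners, Bcl6 corepressors, Maf family genes, Zeb partners and BMP genes changed sign under at least 1 setting, and the causes were not tested.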
